A study of Mus musculus with 7 samples.

Results

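Foxp3+ regulatory T cells were taken here as the kept cells that carried at least 1 UMI (a counted transcript molecule) of Foxp3 and at least 1 UMI of Cd3d, Cd3e or Cd3g, with no UMI of the B cell gene Cd79a or the progenitor gene Pdgfra. They were 300 of 39566 kept cells and 300 of 4810 CD3+ cells, which are the kept cells passing the same rule without the Foxp3 term. Cells were kept from 500 UMIs and 300 genes upward if mitochondrial genes gave no more than 15% of UMIs. The cells came from the stromal vascular fraction, the non-adipocyte cells left after collagenase digestion, of the inguinal subcutaneous fat of female C57BL/6N mice. There were 4 libraries from young mice aged 11 to 12 weeks and 3 from old mice aged 18 months, and the labels name no treatment, no genetic change and no sort for either age. The labels do not say how many mice gave a library or whether the inguinal lymph node was taken out, and where a library is not 1 mouse the p-values measure only the spread between libraries. The rule used Foxp3 and the 5 lineage genes named above, and because the cells were chosen by those measured UMIs, levels of these 6 genes are given as description only.

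Foxp3 is the transcription factor that sets and keeps the regulatory T cell state. Such cells hold back other immune cells through the inhibitory receptor Ctla4, through capture of interleukin-2 by the receptor chain Il2ra, and through cytokines such as interleukin-10. In visceral fat of mice, regulatory T cells are known for the interleukin-33 receptor ST2 (gene Il1rl1), Klrg1, Gata3, Areg and Pparg, whereas those that circulate through lymphoid organs carry the homing receptor Ccr7.

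The 300 cells were spread unevenly. The young libraries 1 to 4 held 2, 8, 13 and 18 of them, and the old libraries 1 to 3 held 58, 95 and 106. Of the 300 cells, 123 had exactly 1 Foxp3 UMI, 65 had 2 and 112 had 3 or more, and 12 had a CD3 sum of exactly 1. Just outside the rule were 51 Foxp3+ cells with no CD3 UMI, 19 Foxp3+ CD3+ cells with Cd79a and 23 with Pdgfra. A Cd4 UMI was seen in 166 of the 300 cells and a Cd8a or Cd8b1 UMI in 31. Foxp3 was detected in 11.7% of CD3+ cells with Cd4 and 1.13% of those with Cd8a or Cd8b1. It was detected in 0.132% of Cd79a+ cells, 0.144% of endothelial cells, 0.268% of myeloid cells and 0.108% of Pdgfra+ cells, which should lack it. The median UMIs per library ran from 4961.5 to 8391 in the first of these classes, from 4208 to 6378 in Cd79a+ cells and from 10003 to 28247 in Pdgfra+ cells. Without Foxp3 itself, all 9 other regulatory T cell markers were detected in 6 libraries, and the 2 cells of young library 1 lacked Il2ra and Lrrc32.

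Per library the Foxp3+ cells had a median of 3924 to 9190 UMIs and gave 12003 to 1040394 UMIs in all, out of 52336665 to 99516882 in a whole library. Young libraries 1 and 2, with 2 and 8 cells, did not enter the gene tests in Foxp3+ cells, which needed 10 cells, and their levels are printed beside each result. The barcode of a Foxp3+ cell occurred in another library in 2 cases, in 0 of them as a Foxp3+ cell. Doublets were taken as the highest scores of each library, at a preset rate of 0.8% per 1000 barcodes. By that rate 15 of the 300 cells were doublets, 10 of them in old library 3. Some libraries stood apart. Cd79a+ B cells made up 1.6%, 2.00%, 6.69% and 1.36% of kept cells in young libraries 1 to 4 and 3.85%, 3.42% and 21.1% in old libraries 1 to 3. The homing gene Ccr7 was at 33.8, 169, 1197 and 1082 CPM (CPM: the gene's share of all UMIs of the same cells, times 1e6) in the Foxp3-negative CD4 T cells of young libraries 1 to 4 and at 161, 48.1 and 244 CPM in old libraries 1 to 3. Young libraries 3 and 4, the only young libraries in the gene tests of Foxp3+ cells, were thus the 2 with high Ccr7 in the neighbouring T cells as well.

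Foxp3+ cells made up a larger share of the T cells in every old library than in any young one. Among CD3+ cells they were 2.63%, 2.61%, 3.50% and 4.38% in young libraries 1 to 4 and 5.13%, 7.85% and 8.12% in old libraries 1 to 3, or 3.28% ± 0.84 (SD, n = 4) and 7.03% ± 1.65 (SD, n = 3). The shares did not overlap, and the old mean was 2.14 times the young mean (difference of mean log2 odds 1.05, 2-sided exact permutation p = 0.0286, the smallest that 35 splits of 7 libraries can give). After adjustment over the 3 denominators tested, the permutation p was 0.0571. Exact binomial 95% intervals, which cover counting error only, ran from 0.320% to 9.18% in young library 1 with its 76 CD3+ cells and from 6.69% to 9.73% in old library 3 with 1306. Among CD4 T cells (Foxp3+ cells plus CD3+ Foxp3-negative cells with Cd4 and without Cd8a or Cd8b1) the shares were 9.52%, 11.9%, 11.5% and 16.5% in the young and 22.7%, 18.8% and 26.6% in the old libraries. Their means were 12.4% ± 2.96 (SD, n = 4) and 22.7% ± 3.89 (SD, n = 3), again without overlap (exact permutation p = 0.0571, adjusted 0.0571). The gate was unequal, since Foxp3+ cells needed no Cd4 UMI and could hold Cd8a or Cd8b1. With Cd4 required and Cd8a and Cd8b1 absent in all cells, the shares were lower. They were then 5.0%, 4.84%, 4.76% and 9.90% in the young and 14.7%, 10.9% and 15.1% in the old libraries, and were not tested. Among all kept cells the shares were 0.0426%, 0.135%, 0.453% and 0.306% in the young and 0.875%, 1.27% and 1.73% in the old libraries, with means of 0.234% and 1.29% (exact permutation p = 0.0571, adjusted 0.0571). A share of kept cells moves with the yield of all other cells. With cells thinned to 2000 UMIs, which left out the 6.47% to 14.6% of kept cells per library that were shallower, the CD3+ shares were 1.96% and 4.74% and the CD4 shares 12.8% and 22.1%, and all 3 exact permutation tests gave p = 0.0286 after adjustment. Thinned to 3000 UMIs it was 0.0857 in all 3 exact permutation tests, and the CD4 shares overlapped. Since 123 of the cells rest on 1 Foxp3 UMI, the shares were also taken with at least 2 required. They were then 1.67% and 4.13% of CD3+ cells on average, without overlap, and the exact permutation p after adjustment was 0.129 among CD3+ and kept cells and 0.143 among CD4 T cells.

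**Figure D1:**
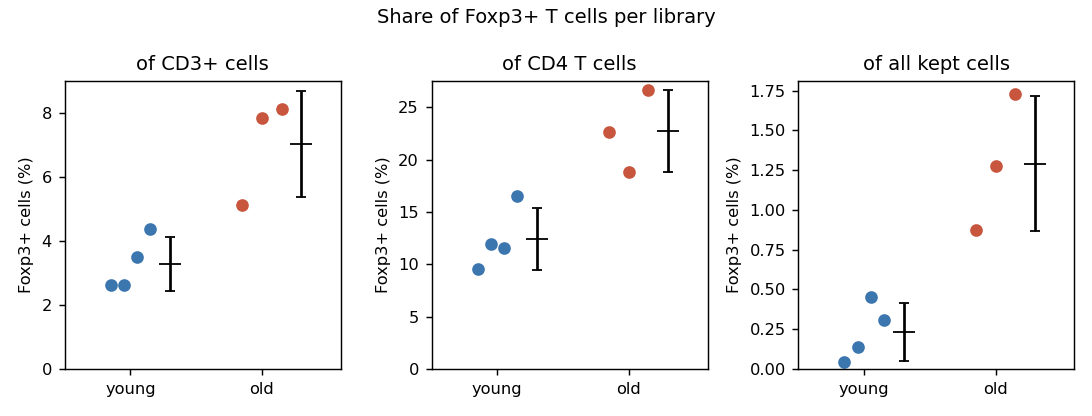
Foxp3+ cells as a percentage of CD3+ cells, CD4 T cells and all kept cells, 1 point per library (blue young, red old), with the mean and SD as a black bar. In all 3 panels the lowest old library lies above the highest young one.

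Set against the Foxp3-negative CD4 T cells of the same libraries, the Foxp3+ cells carried the regulatory T cell genes and fewer transcripts of naive T cell genes. The test used young libraries 3 and 4 and old libraries 1 to 3, each with both cell groups, and the Foxp3-negative group can hold regulatory T cells in which no Foxp3 UMI was captured. Of 6777 genes, 587 (8.66%) differed, 289 (4.26%) higher and 298 (4.40%) lower in Foxp3+ cells (edgeR quasi-likelihood test with library as a term, Benjamini-Hochberg adjusted p under 0.05). In the list of regulatory T cell identity genes, 10 of 13 tested were higher and 0 lower, with a median log2 fold change of 2.04 against -0.02 over all genes. These genes check the label, since the list was chosen for the cell type.

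Il2ra was at 257, 433, 362, 324 and 239 CPM in the Foxp3+ cells of young 3, young 4, old 1, old 2 and old 3, and at 2.25, 11.5, 28.3, 62.5 and 20.8 CPM in the Foxp3-negative cells of the same libraries (log2 fold change 3.52, SE 0.34, adjusted p = 7.18e-05). Ikzf2, which encodes the transcription factor Helios, was at 772, 656, 1248, 1209.7 and 371 against 36.1, 51.1, 331, 173 and 79.2 CPM (log2 fold change 2.75, SE 0.27, adjusted p = 7.18e-05). Both genes were higher in the Foxp3+ cells of all 5 libraries. Ctla4 (log2 fold change 2.04, adjusted p = 1.09e-05), the costimulatory receptor Tnfrsf4, also called OX40 (2.05, adjusted p = 0.000302), and Tnfrsf18, also called GITR (1.51, adjusted p = 6.57e-05), were higher too. Larger differences were seen for Tnfrsf9, the receptor 4-1BB (3.40, adjusted p = 0.000148), Lrrc32, which holds latent TGF-beta at the cell surface (3.05, adjusted p = 0.000156), and Ikzf4, which encodes Eos (3.00, adjusted p = 4.89e-05). The costimulatory receptor Icos, 1 of the 5 marker genes of the cell type, stood at 501, 367, 226, 484 and 202 CPM in Foxp3+ and 330.3, 339.9, 263, 380.1 and 243 CPM in Foxp3-negative cells, and the ranges overlapped (log2 fold change 0.01, SE 0.14, adjusted p = 0.985). Lag3 (0.19, adjusted p = 0.712), Pdcd1 (0.78, adjusted p = 0.198), Maf (0.28, adjusted p = 0.560) and Cdkn1a (0.26, adjusted p = 0.526) did not pass the test either.

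Genes known from fat regulatory T cells set the Foxp3+ cells apart as well. Of 16 tested genes of that list, 10 were higher, 0 lower, and the median log2 fold change was 0.81. Klrg1, an inhibitory receptor for cadherins, was at 42.9, 45.9, 285, 368 and 282 CPM in Foxp3+ and 0, 0, 38.6, 15.6 and 32.8 CPM in Foxp3-negative cells (log2 fold change 3.55, SE 0.32, adjusted p = 4.89e-05). Il1rl1 was at 107, 72.1, 445, 366 and 259 against 5.64, 1.65, 61.0, 53.7 and 38.8 CPM (log2 fold change 2.89, SE 0.20, adjusted p = 1.09e-05). In every library the Foxp3+ value of both genes was the higher of the pair. The tissue repair factor Areg (2.36, adjusted p = 0.000708), Il10 (2.49, adjusted p = 0.000148), the suppressor ligand Fgl2 (1.73, adjusted p = 4.89e-05), the chemokine receptor Ccr2 (1.27, adjusted p = 0.00540) and the transcription factors Gata3 (0.81, adjusted p = 0.0142), Id2 (1.04, adjusted p = 0.0152) and Rora (0.72, adjusted p = 0.0322) were also higher, as was Tnfrsf1b (0.57, adjusted p = 0.0339). Among suppressor effectors 6 of 7 tested were higher (median 1.73), Tgfb1 (0.45, adjusted p = 0.0432) and Lgals1 (1.26, adjusted p = 0.00187) among them. Over the alternative analyses Tgfb1 passed in 5 of 16 and Tnfrsf1b in 7 of 16. The integrin chain Itgae (3.46, adjusted p = 0.000249) and the membrane-cytoskeleton gene Frmd5 (4.29, adjusted p = 4.89e-05) complete the 8 largest increases under the naming rule, with Il2ra, Klrg1, Tnfrsf9, Lrrc32, Ikzf4 and Il1rl1.

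In the list of naive and central T cell genes, 9 of 11 tested were lower in Foxp3+ cells, 0 higher, and the median was -1.49. Tcf7, a transcription factor of naive and memory T cells, was at 100.1, 45.9, 138, 22.9 and 50.9 CPM in Foxp3+ and 496, 381, 362, 331 and 272 CPM in Foxp3-negative cells (log2 fold change -2.51, SE 0.26, adjusted p = 0.000132). Its partner Lef1 (-2.09, adjusted p = 0.00112), the chromatin organiser Satb1 (-2.34, adjusted p = 4.14e-05), Bach2 (-1.72, adjusted p = 0.00140), the egress receptor S1pr1 (-1.74, adjusted p = 1.09e-05), Il7r (-1.10, adjusted p = 0.000981), Bcl2 (-1.49, adjusted p = 0.00248), Foxp1 (-0.93, adjusted p = 0.00497) and Klf2 (-0.62, adjusted p = 0.00351) were lower. Ccr7 (-0.42, adjusted p = 0.297) did not pass. The 8 largest decreases under the naming rule were Tdrp (-3.39, adjusted p = 0.00156), Themis, a T cell receptor signalling protein (-2.66, adjusted p = 7.18e-05), Ehd3 (-2.62, adjusted p = 0.000236), Fasl (-2.57, adjusted p = 0.00268), Tcf7, Tnfsf11, which encodes RANKL (-2.46, adjusted p = 9.28e-05), Ifng (-2.41, adjusted p = 6.54e-05) and St8sia1 (-2.38, adjusted p = 0.000896). In T cell receptor signalling 4 of 12 tested genes were lower and 0 higher, with Lat at -0.58, Cd247 at -0.81 and Nfatc1 at -0.84 on the log2 scale among the 4. Among the interleukin-2 and STAT5 genes Il2ra, Il2rb (1.43, adjusted p = 0.000603) and Cish (1.45, adjusted p = 0.00499) were higher, and Jak1 (-0.50, adjusted p = 0.0448), Stat5b (-0.61, adjusted p = 0.0256) and Bcl2 lower, of 11 tested. Jak1 and Stat5b each passed in 5 of 16 alternative analyses.

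Smaller groups were mixed. In proliferation 5 of 8 tested genes were higher, with log2 fold changes of 1.65 for Birc5, 1.72 for Cdk1, 1.46 for Tyms, 1.28 for Rrm2 and 0.61 for Hmgb2, the last at -0.65 with the stricter gate. Homing receptors split into 2 higher (Ccr2 and Itgae) and 3 lower of 14, namely S1pr1, the integrin chain Itgb1 (-1.47, adjusted p = 0.000486) and the oxysterol receptor Gpr183 (-1.58, adjusted p = 0.00251). The costimulatory list had 5 higher, Cd2 (0.55, adjusted p = 0.0419) the smallest, and 1 lower, Cd28 (-0.70, adjusted p = 0.0109), of 9 tested. Capg (1.66, adjusted p = 0.000896) and Izumo1r, the folate receptor family member FR4 (1.15, adjusted p = 0.00262), belong to the identity list. Of the senescence list Lmnb1 (0.80, adjusted p = 0.0300), S100a4 (1.26, adjusted p = 0.00202) and S100a6 (1.20, adjusted p = 0.000217) were higher of 8 tested. Lmnb1 codes for a nuclear lamin and the S100 genes for calcium-binding proteins, and whether the cells were senescent was not tested. Dgat1, an enzyme of triglyceride synthesis, was the 1 gene higher among 10 tested for lipid handling (0.80, adjusted p = 0.00991). Among 6 inhibitory receptors Klrg1 and Ctla4 were higher, and of 4 helper lineage genes Ifng was lower. Ifi27l2a (0.47, adjusted p = 0.0210) was the 1 higher of 9 in the interferon list, and Btg2 (-0.66, adjusted p = 0.0127) the 1 lower of 14 immediate early genes. The count of 587 fell to 206 with a stricter gate against cells holding UMIs of other lineages, to 312 with Cd4 required of both groups, to 264 with the stricter cell filter, and to 316, 328 and 234 without old libraries 1, 2 and 3. The first 2 of these used all 7 libraries, since too few young ones had 10 Foxp3+ cells, and young library 1 entered with 1. Gate and set of libraries cannot be told apart there. The stricter gate left out 194 of the 300 Foxp3+ cells. These held a UMI of Cd8a, Cd8b1, C1qa, Pecam1, Epcam or Ms4a1, or at least 2 of Lyz2. It kept 1, 3, 4 and 7 Foxp3+ cells in young libraries 1 to 4 and 14, 40 and 37 in old libraries 1 to 3. Of 63 genes that passed and were followed one by one, 37 passed in every alternative that could be run. Hmgb2 passed in 7 of 16, Ifi27l2a in 8 of 16, and Lmnb1 and Cd2 each in 9 of 16 alternative analyses.

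**Figure D2:**
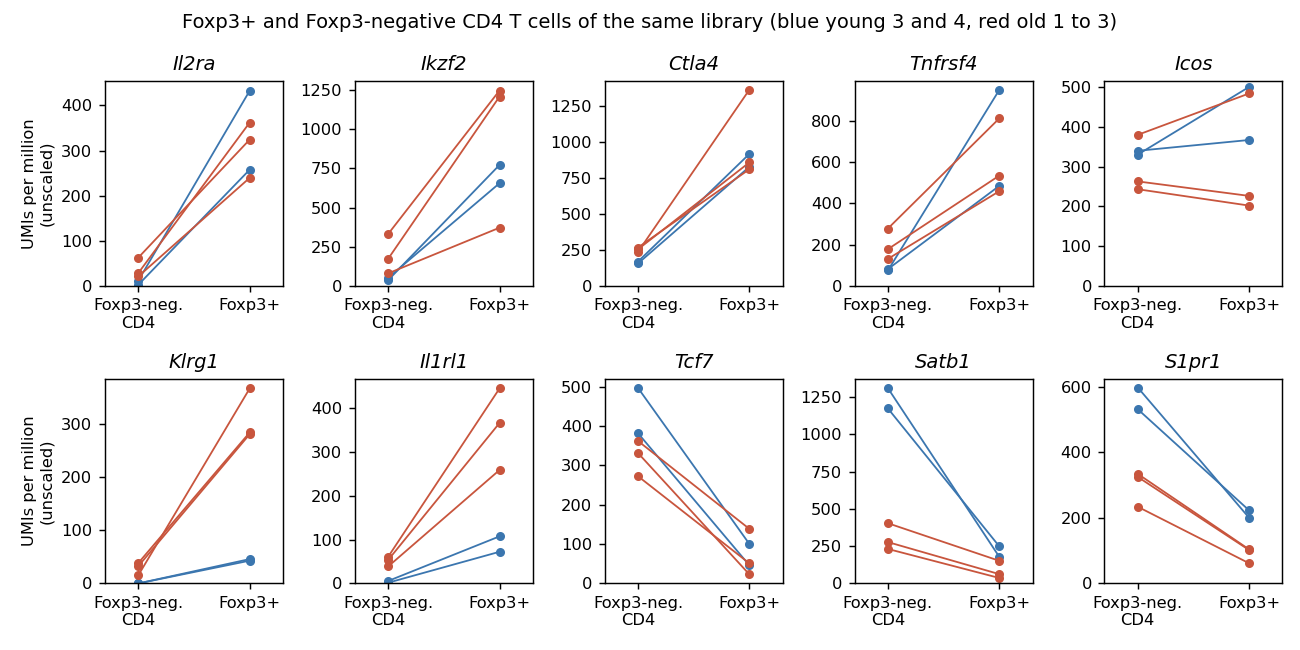
Levels of 10 genes in CPM (unscaled) in the Foxp3-negative CD4 T cells and the Foxp3+ cells of young libraries 3 and 4 (blue) and old libraries 1 to 3 (red), with a line joining the values of 1 library. Il2ra, Ikzf2, Ctla4, Tnfrsf4, Klrg1 and Il1rl1 go up along every line, Tcf7, Satb1 and S1pr1 go down, and Icos does neither.

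The Foxp3+ cells differed among themselves in Ccr7, Klrg1 and Il1rl1. Ccr7, but neither Klrg1 nor Il1rl1, was detected in 51 of the 300 cells. Klrg1 or Il1rl1, but not Ccr7, was detected in 151, Ccr7 with Klrg1 or Il1rl1 in 13 and none of the 3 genes in 85. The first 2 sets are called homing-type and tissue-type below, only by those 3 genes, and detection depends on depth. Young libraries 1 to 4 had 0, 2, 8 and 9 homing-type cells and 1, 5, 4 and 4 tissue-type cells. Old libraries 1 to 3 had 11, 4 and 17 homing-type cells and 25, 59 and 53 tissue-type cells. Homing-type cells were thus the larger group in young libraries 3 and 4 (61.5% and 50% of Foxp3+ cells), and the smaller in young library 2 (25.0%) and in all old libraries (19.0%, 4.21% and 16.0%).

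**Figure D3:**
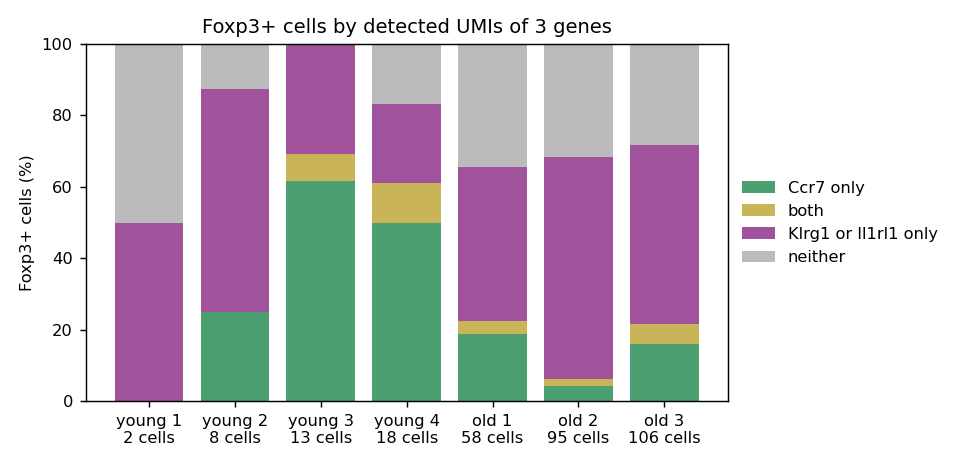
Percentage of the Foxp3+ cells of each library in which UMIs of Ccr7 only (green), of Ccr7 with Klrg1 or Il1rl1 (yellow), of Klrg1 or Il1rl1 only (purple) or of none of the 3 (grey) were detected, with the number of Foxp3+ cells under each bar. Green is largest in young libraries 3 and 4, and purple is larger than green in young library 2 and the old libraries.

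Other genes, not used to form the 2 sets, differed between them in the 3 old libraries, of which old 2 had only 4 homing-type cells. AA467197, also called Nmes1, a gene for a small mitochondrial protein, was at 9.36, 0 and 0 CPM in the homing-type cells of old 1, 2 and 3 and at 1385, 355 and 560.1 CPM in their tissue-type cells. Il10 was at 0, 0 and 0 CPM and 381, 176 and 350.0 CPM in the same order. The 2 sets did not overlap for either gene. Ccr2 was at 18.7, 30.5 and 0 against 581, 597 and 315 CPM, Gata3 at 65.5, 61.0 and 48.1 against 369, 378 and 272 CPM, and Il2ra at 37.4, 61.0 and 56.2 against 708, 466 and 255 CPM. The chemokine gene Cxcl2 was at 431, 91.4 and 16.0 against 1361, 896 and 1242 CPM, and Areg at 46.8, 91.4 and 120.4 against 429, 678 and 369 CPM. In each old library all 5 were higher in the tissue-type cells. Tcf7 ran the other way, at 309, 122 and 225 CPM in homing-type and 0, 0 and 16.5 CPM in tissue-type cells, as did Lef1, at 122, 91.4 and 48.1 against 42.3, 19.6 and 14.4 CPM. Ikzf2 was higher in the homing-type cells of all 3 libraries (1319.6, 1585 and 626 against 1053, 1082 and 327 CPM). The median UMIs per cell were 5698, 4311 and 4251 in homing-type and 6304, 4399 and 7069 in tissue-type cells, so tissue-type cells were the deeper set in each, and the part of depth was not tested. Macrophage transcripts were higher in the tissue-type cells of old 2 and 3, but not of old 1. Lyz2 was at 84.2, 30.5 and 24.1 CPM in homing-type and 66.5, 763 and 2734 CPM in tissue-type cells of old 1, 2 and 3, and C1qa at 93.6, 91.4 and 0 against 24.2, 117 and 140.0 CPM. Cxcl2 and Ccr2 are also genes of myeloid cells, and the part of such RNA in these values was not tested. Young libraries 3 and 4, with 4 tissue-type cells each, ran the other way for Il2ra, at 282 and 599 CPM in homing-type and 188 and 306 CPM in tissue-type cells. Lef1 did so in young library 3 (80.6 against 102 CPM), and Ikzf2 in young library 2 (422 against 908 CPM). AA467197 was at 0, 43.2, 17.1 and 0 CPM, or 0, 1, 1 and 0 UMIs, in the few tissue-type cells of young libraries 1 to 4. The high level of the old tissue-type cells was thus not seen in the young ones. In the old cells with none of the 3 genes, AA467197 (0, 7.80 and 11.5 CPM) and Il2ra (35.1, 78.0 and 42.0 CPM) were near the homing-type values. Areg (316, 343 and 397 CPM) and Il10 (23.4, 15.6 and 126 CPM) were above them. The 2, 2 and 6 old cells with Ccr7 and Klrg1 or Il1rl1 had AA467197 at 994, 0 and 517 CPM and Il10 at 1823, 75.1 and 796 CPM. A low level of AA467197 or Il2ra was thus not particular to homing-type cells. No test of these sets was made.

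**Figure D4:**
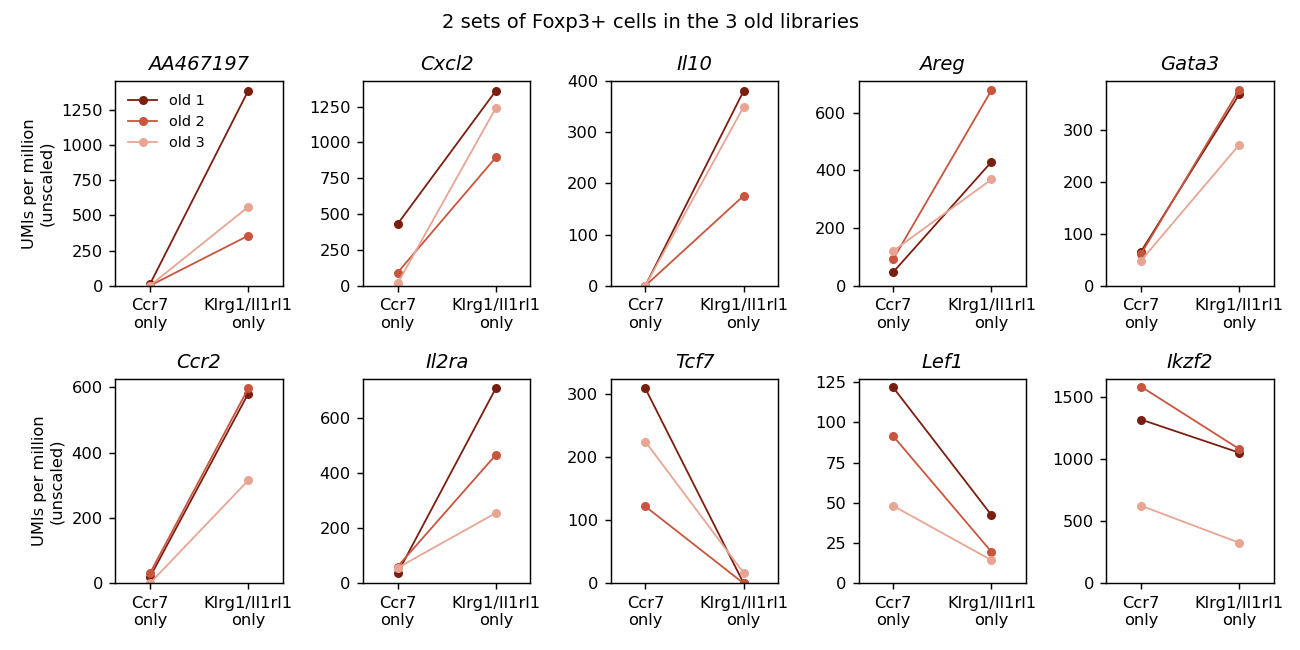
Levels of 10 genes in CPM (unscaled) in the Foxp3+ cells of the 3 old libraries with Ccr7 only and with Klrg1 or Il1rl1 only, with a line joining the 2 values of 1 library. AA467197, Cxcl2, Il10, Areg, Gata3, Ccr2 and Il2ra rise along each line, and Tcf7, Lef1 and Ikzf2 fall.

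Between the ages, 4 of 5340 tested genes (0.0749%) were higher in Foxp3+ cells of the 3 old libraries than of young libraries 3 and 4, and 0 were lower (edgeR quasi-likelihood test, adjusted p under 0.05). The 4 genes were AA467197, Cxcl2, Klrg1 and Tmem176b. In all 428 genes had an unadjusted p under 0.05, and DESeq2 called 12 higher and 5 lower. The count was 21, 44, 37, 3 and 12 without young library 3, young library 4, old library 1, old library 2 and old library 3.

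AA467197 (mm10 chr2:122636986-122641191, protein coding) had 0, 1, 1 and 0 UMIs in the Foxp3+ cells of young libraries 1 to 4 and 248, 110 and 362 UMIs in those of old libraries 1 to 3. Its levels were 0, 25.9, 7.15 and 0 CPM in the young and 660.2, 229 and 348 CPM in the old libraries, with no overlap, and among CD8 T, B, myeloid, Pdgfra+ and endothelial cells the last had the highest mean, 28.8 CPM. Over the libraries tested, 1 UMI in 292355 stood against 720 in 1897182, a ratio of 111 with an exact 95% counting interval of 19.9 to 4388 (adjusted p = 0.00264 by edgeR). It was detected in 32.8%, 26.3% and 35.8% of the Foxp3+ cells of old 1, 2 and 3, and the cell with most UMIs held 22.2%, 15.5% and 13.0% of them. It stayed under the threshold in all 15 alternative analyses (adjusted p 1.78e-15 to 0.0157), all 7 libraries included (0.000957). The counting intervals given here and for Tmem176b and Lag3 below cover counting error only, and not the spread between libraries or cells.

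Klrg1 (mm10 chr6:122270596-122282882, protein coding) was at 0, 104, 42.9 and 45.9 CPM in young libraries 1 to 4 and 285, 368 and 282 CPM in old libraries 1 to 3 (log2 fold change 2.68, SE 0.44, adjusted p = 0.0221). Every old library was above every young one, including the 2 left out of the test, where the 0 of young library 1 rests on 12003 UMIs. With all 7 libraries the edgeR adjusted p was 0.0215. In cells with no UMI of any other lineage checked, the ages overlapped. Klrg1 was there at 0, 266, 88.5 and 0 CPM in young libraries 1 to 4 and 235, 450 and 533 CPM in old libraries 1 to 3. The value of young library 2 rests on 3 cells and that of old library 1 on 14. The call was lost without young library 3 (0.0826), without old library 2 (0.112), with the stricter gate (0.109) and with sums thinned to equal depth (0.0742). A Klrg1 UMI was seen in 142 of 300 Foxp3+ cells (47.3%), against 0.210% of myeloid cells with median UMIs of 7106 to 12803 per library, 0.176% of Cd79a+ and 0.144% of Pdgfra+ cells.

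Cxcl2 (mm10 chr5:90903871-90905938, protein coding), a chemokine that attracts neutrophils, was at 0, 414, 42.9 and 65.6 CPM in young libraries 1 to 4 and 929, 655 and 857 CPM in old libraries 1 to 3 (log2 fold change 3.79, SE 0.48, adjusted p = 0.00264). Young library 2, outside the test, came nearest to the old ones, and 87.5% of its 16 UMIs were in 1 cell. Myeloid cells had a mean of 2119 CPM of Cxcl2, more than any Foxp3+ sum. In the 22, 35 and 23 Foxp3+ cells of old 1, 2 and 3 with a C1qa UMI or at least 2 Lyz2 UMIs it was at 1465, 629.8 and 1645 CPM, and in the 36, 60 and 83 without them at 644, 670.0 and 451 CPM, against 45.1 and 0 CPM in the 12 and 15 such cells of young libraries 3 and 4. In the 6 such cells of young library 2 it was at 510.1 CPM, above old library 3, so the ages overlapped once this library was counted. In cells with no UMI of any other lineage checked, young library 2 (1242 CPM in 3 cells) was above the old ones (745, 1057 and 820.2 CPM). With the stricter gate, which used all libraries, the adjusted p was 0.472 (log2 fold change 1.90), and with all 7 libraries and the usual gate it was 0.0782 (2.74). Tmem176b (mm10 chr6:48833818-48841496, protein coding), a membrane protein of antigen-presenting and T cells, was at 167, 77.7, 7.15 and 13.1 CPM in young libraries 1 to 4 and 154, 114 and 239 CPM in old libraries 1 to 3 (log2 fold change 3.95, SE 0.70, adjusted p = 0.0413). Its 3 UMIs in the young libraries tested stood against 362 in the old ones, a ratio of 18.6 with an exact counting interval of 6.31 to 90.6. Young libraries 1 and 2 overlapped the old ones, and the call was lost with all 7 libraries (adjusted p = 0.152), without young library 3 (0.0826), with at least 2 Foxp3 UMIs (0.0654) and with thinned sums (0.153). Tmem176b was at 493 CPM in myeloid cells.

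The level of macrophage genes in the Foxp3+ sums differed between libraries. The 7 macrophage markers summed to 83.3, 51.8, 57.2 and 367 CPM in young libraries 1 to 4 and to 266, 1322 and 2274 CPM in old libraries 1 to 3. All 7 had log2 fold changes above 0 (median 3.24) and 0 passed the test, and young library 4 lay above old library 1. C1qb, Adgre1 and Csf1r were at 0 in young 3, C1qc and Mrc1 in young 4, and none of the 7 in the old libraries. B cell markers stayed at or under 26.2 CPM in the libraries tested. CD8 T cell markers, of which Cd8a was at 0 in young 3 and 4, summed to 0, 414, 85.8 and 492 CPM in the young and 495, 1004 and 1628 CPM in the old libraries, and progenitor markers to 833, 1139, 679 and 557 CPM in the young and 609.6, 782 and 168 CPM in the old libraries. Endothelial markers summed to 83.3, 181, 85.8 and 328 CPM in the young and 282, 162 and 133 CPM in the old libraries, and the lists for other lymphoid, myeloid, mural, Schwann and epithelial cells to at most 167 CPM each in any library. Pdgfra and Cd79a were at 0 by the rule. The part of these transcripts in the age differences was not tested.

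The bases before the RefSeq start are shown for the 2 genes that passed and held a motif searched for, since both were higher in the old libraries. Of the 4 genes that passed, AA467197, Cxcl2 and Tmem176b had an entry in the RefSeq promoter table (GRCm38.p6) and Klrg1 did not. The 250 bases before the start were searched on both strands for TGANTCA (AP-1, where N is any base), an NF-kappaB motif and AGATAA, which is bound by the family of Gata3. They occur in 6.75%, 0.356% and 9.99% of 32851 promoters of that length. AA467197 had 1 AP-1 match, Cxcl2 had 1 NF-kappaB match, and the 3 Tmem176b starts had 0 matches of any motif. The stretches around the 2 matches that lie outside annotated exons (GRCm38.p6), the first of them inside the longer span of AA467197 given above, are at chr2:122637755-122637849 and chr5:90903757-90903856 on the plus strand, with the match in capitals:
AA467197: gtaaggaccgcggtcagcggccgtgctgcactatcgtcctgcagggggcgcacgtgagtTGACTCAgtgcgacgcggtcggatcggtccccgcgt
Cxcl2: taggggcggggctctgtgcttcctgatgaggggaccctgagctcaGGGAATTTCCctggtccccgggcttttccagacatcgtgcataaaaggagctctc
A match is a run of letters and no evidence that a factor binds there.

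The genes that mark fat regulatory T cells lay mostly above 0 between the ages, and those of naive and central T cells mostly below, but few passed. Of 16 tested genes of the fat list 15 had a log2 fold change above 0, 1 passed (Klrg1), and the median was 1.31 against 0.01 over all genes. In 9 the libraries tested did not overlap between ages, where 27.5% of all tested genes did not. Il1rl1 was at 83.3, 466, 107 and 72.1 CPM in young libraries 1 to 4 and 445, 366 and 259 CPM in old libraries 1 to 3 (log2 fold change 1.86, SE 0.42, adjusted p = 0.141). Young library 2, which did not enter the test, had the highest value of all 7, and the gene passed in 4 of 15 alternative analyses. Il10 was at 0, 0, 35.8 and 59.0 CPM in the young and 261, 118 and 324 CPM in the old libraries (log2 fold change 2.22, SE 0.56, adjusted p = 0.177), with no overlap among all 7. Gata3 was at 249.9, 207, 107 and 45.9 CPM in the young and 210.3, 308 and 182 CPM in the old libraries (log2 fold change 1.48, SE 0.45, adjusted p = 0.256), and young libraries 1 and 2 lay within the old range. Areg was at 0, 155, 308 and 118 CPM in the young and 282, 547 and 308 CPM in the old libraries (log2 fold change 0.70, SE 0.44, adjusted p = 0.740), with overlapping ages. Pparg, the nuclear receptor of the fat program, had 0, 2, 1 and 2 UMIs in the young and 9, 6 and 33 in the old libraries, too few to be tested.

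Of the 11 genes of the naive and central list, 10 had a log2 fold change below 0, 0 passed, and the median was -1.02. Ccr7 was at 0, 51.8, 944 and 498 CPM in young libraries 1 to 4 and 272, 39.5 and 171 CPM in old libraries 1 to 3 (log2 fold change -2.26, SE 0.55, adjusted p = 0.154). Libraries young 3 and 4 were above all old ones, but young 1 was below all of them and young 2 lay among them, so the ages overlapped once all libraries were counted. The 4 genes lower in old cells with the lowest p, none under the threshold, were Ifngr2, a chain of the interferon-gamma receptor (-2.23, adjusted p = 0.0588), Uhrf1, which keeps DNA methylation through cell division (-2.67, adjusted p = 0.0791), Nsg2 (-3.02, adjusted p = 0.0840) and the G protein regulator Rgs10 (-1.69, adjusted p = 0.126). Ifngr2 was at 83.3, 51.8, 143 and 118 CPM in the young and 21.3, 31.2 and 33.6 CPM in the old libraries. The same gene in Foxp3-negative CD4 T cells was at 33.8, 45.4, 230.0 and 267 CPM in the young and 54.1, 38.9 and 51.3 CPM in the old libraries, so young libraries 3 and 4 were high in both cell groups. Since young 1 and 2 were low in Ccr7 in both cell groups, age and library cannot be told apart for this gene. B cell shares, given above, were high in young 3 and old 3 and low in young 4, and their part in the Ccr7 levels was not tested.

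The markers of the cell type itself did not pass the test between ages, and their standard errors leave room for changes of some size. Ctla4 was at 499.9, 1372, 916 and 826 CPM in the young and 809, 1361 and 856 CPM in the old libraries (log2 fold change 0.08, SE 0.36, adjusted p = 0.988). Ikzf2 was at 999.8, 958, 772 and 656 CPM in the young and 1248, 1209.7 and 371 CPM in the old libraries (log2 fold change 0.25, SE 0.44, adjusted p = 0.949), with old library 3 the lowest of all. Tnfrsf4 (log2 fold change -0.34, SE 0.42, adjusted p = 0.902), Icos (log2 fold change -0.66, SE 0.40, adjusted p = 0.723) and Il2ra (log2 fold change -0.29, SE 0.37, adjusted p = 0.909) overlapped too. Of 14 identity genes tested, 7 were above 0 and 7 below, and 0 passed. Lag3, an inhibitory receptor, had 0, 0, 1 and 0 UMIs in the young and 14, 22 and 54 in the old libraries (edgeR adjusted p = 0.198). The ratio over the libraries tested was 13.9, with an exact counting interval of 2.43 to 554 that leaves out the spread between libraries. The cell cycle inhibitor Cdkn1a was at 0, 518, 14.3 and 144 CPM in the young and 330.1, 285 and 381 CPM in the old libraries (log2 fold change 1.95, SE 0.56, adjusted p = 0.228), with young library 2 the highest. Its relative Cdkn2a had 0 UMIs in all young and 3, 1 and 18 UMIs in the old libraries and was not tested. Of 8 senescence, 9 proliferation, 8 interferon, 14 immediate early and 9 lipid genes tested, 0 passed, and their medians were 0.18, -0.14, 0.24, 0.56 and 0.67. Of 6 inhibitory receptors 1 passed (Klrg1, median 0.43). In suppressor effectors (8 tested), costimulatory receptors (8), helper lineage genes (3), homing receptors (13), interleukin-2 and STAT5 genes (11) and T cell receptor signalling (12) 0 passed, with medians of 0.39, -0.07, -0.18, -0.06, 0.15 and 0.07.

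**Figure D5:**
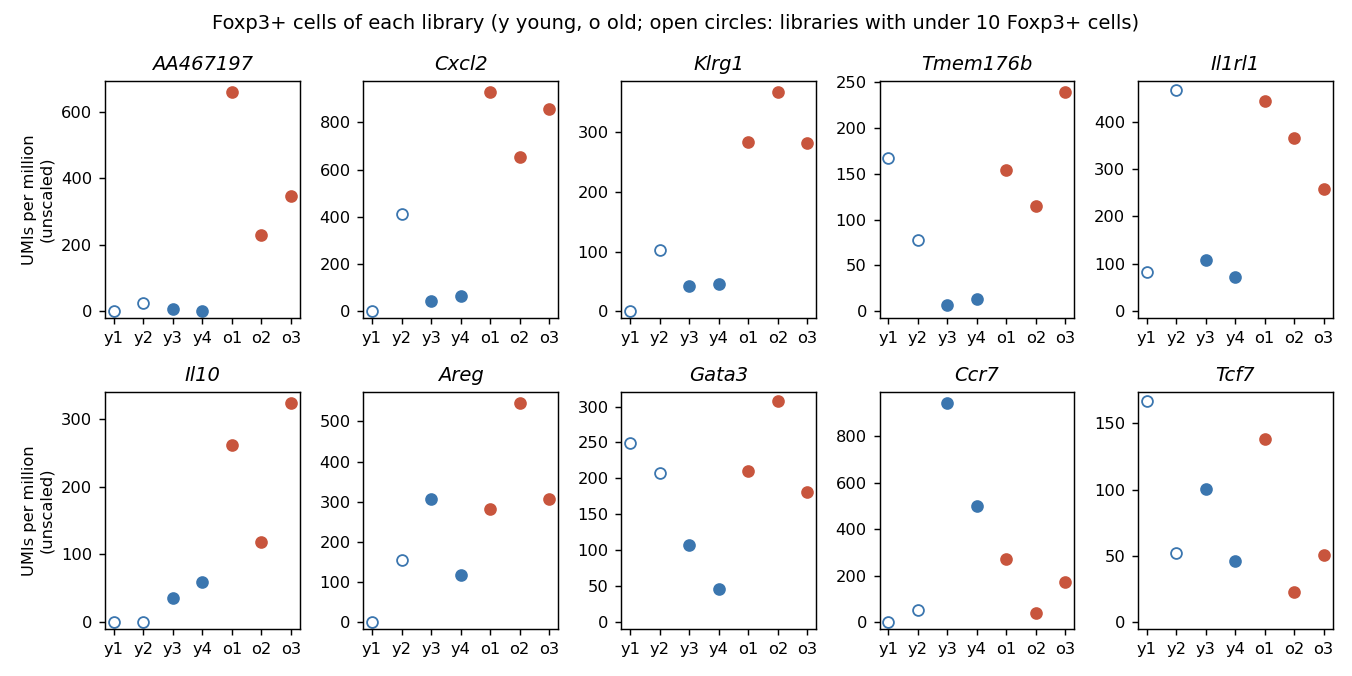
Levels of 10 genes in CPM (unscaled) in the Foxp3+ cells of each library, young 1 to 4 in blue and old 1 to 3 in red, with open circles for the 2 young libraries of 2 and 8 cells that did not enter the test. AA467197, Cxcl2, Klrg1 and Il10 are higher in every old library than in any young one, both open circles of Gata3 lie among the old values, and the ages overlap in Tcf7.

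Detection was also counted per cell. On cells thinned to 2000 UMIs, Klrg1 was detected in 15.4%, 0%, 32.1%, 44.6% and 29.2% of Foxp3+ cells of young 3, young 4, old 1, old 2 and old 3, which is 7.69% on average in the young and 35.3% in the old libraries (18.8% and 50.4% without thinning). The value of 0 allows up to 16.7% of 18 cells with a UMI at that depth, and before thinning 4 of these 18 cells (22.2%) had one. Ccr7 was detected in 46.2%, 50%, 19.6%, 3.26% and 14.2% (48.1% and 12.4% on average, 65.2% and 16.8% without thinning). Among cells that should lack it, a Ccr7 UMI was seen in 4.46% of endothelial and 2.26% of Pdgfra+ cells, without thinning. Of the 21 genes tested, the ages did not overlap for these 2, Cxcr6, Mki67 and Ctla4. Each reached the exact permutation p = 0.1 that is the smallest for 2 against 3 libraries. Klrg1 and Cxcr6 were higher in the old libraries, and Ccr7, Mki67 and Ctla4 lower. By UMI sums in the same libraries, 27.5% of all tested genes did not overlap, so such separation was common and is no result about these genes. Over the 21 genes tested 0 passed after adjustment (lowest adjusted p = 0.35), and this design could not have reached 0.05. Young library 2, with 8 cells of at least 2000 UMIs, had Klrg1 in 37.5% and Ccr7 in 12.5% of them, close to the old libraries. Thinning left out 2, 3 and 0 shallower cells in old libraries 1, 2 and 3 and 0 in young 3 and 4.

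In the Foxp3-negative CD4 T cells, where all 7 libraries entered the test, 39 of 7639 genes (0.511%) passed the edgeR test, 34 (0.445%) higher and 5 (0.0655%) lower in the old libraries. The largest increases under the naming rule were Gzmk, Eomes, AA467197, Il10, Lag3, Eea1, Abcb1a and Areg, and the decreases Dapl1, Gpr171 and Tesc. Over the alternative analyses Abcb1a passed in 7 of 15, Dapl1 in 9 of 16 and AA467197 in 11 of 15, and of 12 passing genes followed 3 passed in all. AA467197 was at 20.3, 2.52, 1.13 and 0 CPM in young libraries 1 to 4 and 67.8, 34.8 and 35 CPM in old libraries 1 to 3 (log2 fold change 3.90, SE 0.68, adjusted p = 0.0234), far below the Foxp3+ cells of the same old libraries. Il10 (log2 fold change 3.85, SE 0.53, adjusted p = 0.00556), Areg (log2 fold change 2.54, SE 0.41, adjusted p = 0.0131) and Lag3 (log2 fold change 3.13, SE 0.47, adjusted p = 0.0111) passed in these cells but not in Foxp3+ cells. Klrg1 (1.66, adjusted p = 0.609), Il1rl1 (1.71, adjusted p = 0.300) and Ccr7 (-2.20, adjusted p = 0.430) did not pass. Because the group can hold regulatory T cells without a Foxp3 UMI, their part in these values was not tested. Of the 39 genes, 16 were over 10 times higher in another cell class. The count was 74, 27, 12 and 21 without young libraries 1 to 4 and 24, 20 and 89 without old libraries 1 to 3.

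Whether age changed a gene differently in the 2 cell groups was tested directly over 8176 genes in the 5 libraries. The change from young to old was lower in Foxp3+ than in Foxp3-negative cells for 6 genes (0.0734%) and higher for 0 by edgeR, with 687 genes at an unadjusted p under 0.05. DESeq2 called 1 higher and 11 lower. Tnfsf8, the ligand of CD30, was at 150.2, 91.8, 42.6, 37.4 and 58.6 CPM in Foxp3+ and 47.4, 109, 396, 291 and 261 CPM in Foxp3-negative cells of young 3, young 4, old 1, old 2 and old 3 (log2 fold change -3.22, SE 0.52, adjusted p = 0.0441). The glucose transport regulator Tbc1d4 (-3.08, adjusted p = 0.0441), the endosome protein Eea1 (-2.74, adjusted p = 0.0443) and Nrp1, a receptor of thymus-derived regulatory T cells (-2.17, adjusted p = 0.0437), also passed. Nrp1 was at 207, 209.8, 303, 347 and 112 CPM in Foxp3+ and 37.2, 51.1, 253, 362 and 141 CPM in Foxp3-negative cells, where both young values were below the old ones. The other 2 genes, Gpihbp1 and Timp4, are endothelial genes, and all UMIs of both in the young Foxp3+ cells tested (63 and 16) were in young library 4. They changed sign without that library and with doublets left out. The count of 6 was 0 without old library 1 and with doublets left out, 1 without old library 3, and 70, 14 and 11 without young 3, young 4 and old 2. Of the 6 genes 0 passed in every alternative analysis, and Eea1 passed in 7 of 15. For AA467197 and Klrg1, which passed in Foxp3+ cells, the age effects of the 2 groups differed by 0.76 (SE 2.70, adjusted p = 0.976) and -4.89 (SE 2.12, adjusted p = 0.552), and neither passed. Klrg1 had 0 and 0 CPM in the Foxp3-negative cells of young 3 and 4, so its fitted difference depends on the prior count and is no bound. The age effects of Ikzf2 (-1.61, adjusted p = 0.0932), Tnfrsf4 (-1.41, adjusted p = 0.110), Areg (-1.88, adjusted p = 0.351), Il10 (-1.41, adjusted p = 0.745) and Ccr7 (0.84, adjusted p = 0.552) did not pass the test of a difference.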

How the data were processed

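Single-cell RNA libraries (10x Genomics 3′ chemistry, per the labels' protocols) were used as the deposited filtered gene-by-barcode matrices of UMI counts for 45514 barcodes and 27998 genes. Per the submitters' processing notes, Cell Ranger 4.0.0 and the mm10 build were used by the authors to make the deposited counts. Annotation beyond that is not given in the sources used here. Cells were kept from 500 UMIs and 300 genes upward with no more than 15% mitochondrial UMIs, and doublets were scored with Scrublet (scanpy 1.11.5, Python 3.11.15) but not removed. UMIs of the cells chosen were summed per library and tested with edgeR 4.0.16 (R 4.3.3; quasi-likelihood test, TMM scaling, Benjamini-Hochberg adjustment over all genes tested). Libraries needed 10 cells of the group. For Foxp3+ cells with the stricter gate, and with Cd4 in both groups, too few young libraries had them, and all 7 entered. Levels in CPM are unscaled. Shares were compared by exact permutation of libraries on log2 odds with 0.5 cells added to each side.

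The members, gene lists and tests were chosen with earlier results of these data known. Named genes were, per comparison, the 8 largest changes in each direction among genes with an adjusted p under 0.05, no overlap between groups, at least 30 CPM and no level over 10 times higher in another cell class. Where fewer than 4 passed, the 4 lowest p-values in each direction were taken. The 5 marker genes, passing list members and a chosen set of T cell genes were added. The comparison classes were Pdgfra+, Cd79a+, endothelial (Pecam1 and Cdh5) and myeloid (C1qa, Csf1r and Adgre1) cells with at least 2 UMIs of those genes and no CD3 UMI. Alternatives were DESeq2 1.42.0, RLE size factors in edgeR, a fit without expression filter, each library left out, doublets left out, a stricter cell filter (at least 500 genes and at most 5% mitochondrial UMIs), at least 2 Foxp3 UMIs, a stricter gate against mixed cells, thinned sums, Cd4 required in both groups, at least 20 cells per library, all 7 libraries and a replicate block. Both age tests and the test of Foxp3+ against Foxp3-negative cells were tested on simulated counts with known changes, and the test of the difference between age effects was not. Each simulation changed 100 genes by 1 and 100 by 2 on the log2 scale. The age test in Foxp3+ cells recovered 9% and 65% of them, with 8 false calls, so it misses most changes of 1. In Foxp3-negative cells 30% and 97% were recovered (6 false calls), and between the cell groups 95% and 100% (5 false calls). Changed genes were drawn only from those above a minimum mean level, and within a simulation all genes had the same dispersion. Recovery of genes with lower counts or a wider spread was not tested. Lists and tests were run as chosen, and 2 of their genes are not reported here. Positions of genes are from GENCODE on mm10.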

Additional observations from a re-analysis of the deposited data

Results flagged for a closer look

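The young libraries were looked at in 18 groups, which were the shares of Foxp3+ cells and levels of named genes in Foxp3-negative CD4 T cells. In 2 of the 18, both of them genes in Foxp3-negative CD4 T cells, 1 young library lay far from the other 3. For Gzmk its gap to the nearest library was 0.917 of the whole range (13.5 CPM at most, 0 at least), and for AA467197 it was 0.876 (20.3 CPM at most, 0 at least). These highest values rest on 2 UMIs of Gzmk and 3 of AA467197 in young library 1, and the other young libraries had 0 or 1 UMI. The limit used flags about 1 in 20 groups of normally spread values. Its rate for counts this low was not worked out, and 1 UMI against 0 in the others would be flagged. For 6 genes the change from young to old differed between Foxp3+ and Foxp3-negative CD4 T cells by the edgeR test of that difference. The differences on the log2 scale were -6.82 for Timp4, -6.32 for Gpihbp1, -3.22 for Tnfsf8, -3.08 for Tbc1d4, -2.74 for Eea1 and -2.17 for Nrp1. The cause of these differences was not tested.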

How the results depend on the processing

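Among the counts of genes and the shares, 58 alternative values kept their direction and side of the threshold or stayed within 1.5 times, 43 moved further and 7 passed where the reported value had not. Some of these values could not have passed. With a library left out, the smallest possible exact permutation p of a share test was 0.0667 or 0.1. With the replicate block the smallest exact sign-flip p was 0.25. The tests of detection per cell could not pass either, as given above. That such values again did not pass was fixed by the design and is no sign of robustness. For genes changed with age in Foxp3+ cells (4 reported), DESeq2 gave 17, no expression filter 119, doublets left out 9, the stricter cell filter 7, thinned sums 2, all 7 libraries 2 and single libraries left out 3 to 44. For Foxp3-negative cells (39) the counts were 65 with DESeq2, 413 without the filter, 20 without doublets, 74 with at least 20 cells and 12 to 89 with a library left out. For Foxp3+ against Foxp3-negative cells (587) they were 966 without the filter, 264 with the stricter cell filter and 234 to 633 with a library left out. Over all 7 libraries they were 206 with the stricter gate and 312 with Cd4 in both groups. For the difference of the age effect (6) they were 10 with RLE factors, 12 with DESeq2, 141 without the filter, 0 without doublets, 1 with the stricter cell filter, 44 with at least 2 Foxp3 UMIs, 12 with thinned sums, 46 with all 7 libraries and 0 to 70 with a library left out. The share differences on the log2 odds scale passed after adjustment among CD3+ cells without doublets (1.01), with the stricter cell filter (1.06) and thinned to 2000 UMIs (1.05). Among kept cells they passed with the stricter cell filter (2.77) and thinned (2.88), and among CD4 T cells without doublets (0.94) and thinned (0.78). With a library left out the exact permutation p was 0.0667 to 0.133, and after adjustment it was 0.0857 for all 3 denominators thinned to 3000 UMIs, where the CD4 shares overlapped, and 0.129 to 0.143 with at least 2 Foxp3 UMIs.

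Same-numbered libraries did not deviate together in Foxp3-negative CD4 T cells (r of -0.05, -0.01 and -0.05), so no pairing by number was seen. These 3 values, with only 19 such cells in young library 1, cannot show that there was none. With the replicate block the counts were 28 in Foxp3+ cells, 102 in Foxp3-negative cells and 19 for the difference of the age effect, the first and last over all libraries. The share differences were 1.18, 3.04 and 1.12 among CD3+, kept and CD4 T cells (3 pairs, exact sign-flip p = 0.25, the smallest possible). The block changed the sign of Ikzf2 with age (-0.056), Il2ra (0.17) and the Timp4 difference (3.47).

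Of the alternative values of single genes that had passed, 1087 passed again, 205 did not and 6 changed sign. Of those of genes that had not passed, 450 again did not, 52 did and 18 changed sign. The 450 include 56 values of detection per cell, where the design could not have given a pass. With age in Foxp3+ cells the sign changed for Ctla4 without old library 2 (-0.10 to 0.24 over libraries left out), Tnfrsf4 without young library 3 (-0.73 to 0.27) and with the stricter gate (0.047), and Il2ra without young library 4 (-0.57 to 0.14), with the stricter cell filter (0.41) and with at least 2 Foxp3 UMIs (0.20). Between the cell groups it changed for Icos without the filter (-0.051), without young library 3 or old library 2 (-0.091 to 0.13), without doublets (-0.024), with the stricter gate (-0.22), at least 20 cells (-0.092) and Cd4 in both groups (-0.16). It also changed for Lag3 with at least 2 Foxp3 UMIs (-0.19), Hmgb2 with the stricter gate (-0.65) and Maf without old library 2 (-0.11 to 0.54). With a library left out the Timp4 difference was -10.95 to 2.27 and the Gpihbp1 difference -7.33 to 3.78, above 0 without young library 4 alone, and without doublets they were 2.06 and 5.11, and with the stricter cell filter the Il10 difference was 0.024. The cause of these changes was not tested. At least 20 cells could not be run for age in Foxp3+ cells, and the block could not be run with at least 10 cells. With 2 and 8 cells, young libraries 1 and 2 give no firm gene level, and 41 young cells limit every age comparison.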
